A study of Mus musculus with 6 samples.

Results

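The nuclear genes for the mitochondrial respiratory chain and ATP synthase were compared between fetal liver and adult bone marrow megakaryocyte progenitors of GATA1s mice. The genes were chosen by symbol from the array annotation: symbols beginning Nduf, Uqcr or Atp5, symbols beginning Cox with a digit from 4 to 8, and Sdha, Sdhb, Sdhc, Sdhd and Cyc1. This gave 91 of the 18193 genes that had a probe set of their own, a probe set being the group of probes that reads 1 transcript. Of these, 81 encode subunits, 8 encode complex I assembly factors (Ndufaf genes), and Cox7a2l and Ndufa4l2 are related proteins that are not counted as subunits. A further 8 symbols (Ndufa11, Ndufa11b, Ndufab1-ps, Ndufb4b, Ndufb4c, Ndufs5-ps, Ndufs6 and Ndufs6b) appeared only on probe sets shared by several genes and were not analysed here. Where a gene had several probe sets, the brightest over the 6 arrays was used.

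All samples came from C57BL/6 mice of the GATA1s genotype, in which the blood transcription factor GATA1 is made in a form shortened at its amino terminus. Megakaryocyte progenitors had been isolated by flow cytometry as lin-, Sca-1-, c-kit+, CD150+, CD41+ cells, from bone marrow of adults aged 12 to 18 weeks (3 arrays) and from fetal liver at E13.5 (3 arrays). Samples of a tissue are labelled as biological replicates, but the number of animals behind each is not given, so a p-value here reflects the spread among the samples alone. Both tissues carried the same genotype and no cells with full-length GATA1 were analysed here, so the comparison is of tissue together with age. Of the genes behind the sort, Itga2b (CD41) averaged 4418 ± 540 in adult marrow and 4521 ± 1049 in fetal liver (signal, SD, n = 3 per tissue), and Slamf1 (CD150) differed by a log2 fold change of -0.07 (adjusted p = 0.886). Kit was lower in fetal liver, at 1793, 1909 and 1833 against 1542, 959 and 1173 (limma, adjusted p = 0.0141). Gata1, which is not part of the gate, was higher, at 2453, 3326 and 3218 against 3931, 4615 and 4019 (adjusted p = 0.0138).

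The respiratory chain passes electrons from NADH and succinate to oxygen through complexes I to IV in the inner mitochondrial membrane, and the proton gradient that complexes I, III and IV build drives ATP synthase. Complexes I, III, IV and ATP synthase combine subunits encoded in the nucleus with a few encoded in mitochondrial DNA, and they are put together with the help of dedicated assembly factors, while complex II is encoded in the nucleus alone. Platelet-forming cells and their progenitors use both oxidative phosphorylation and glycolysis, and several subunits of complex IV exist as paralogous isoforms whose use depends on tissue and oxygen.

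Most of these genes read slightly higher in fetal liver, and the differences were small. Of the 91 genes, 83 had a positive log2 fold change, taken throughout as fetal liver against bone marrow, and 8 a negative one. The median over all 91 was 0.21, with quartiles of 0.13 and 0.33, beside a median of 0.04 over all 18193 genes. Of the 86 genes bright enough to be tested, 27 (31.4%) were higher in fetal liver by limma with a Benjamini-Hochberg adjusted p below 0.05, against 17.8% of all 11645 genes tested. Only Cox7a2l was lower (1.16%), against 18.3% of all genes tested, and 58 were not called. The 27 include Cox4i2, which passed the signal filter only through its fetal liver arrays. Without it, 26 of 85 tested genes (30.6%) were called higher. At an unadjusted p below 0.05, 40 were higher and 1 lower. Leaving out bone marrow replicate 1, 2 or 3 reduced the count called higher to 17, 17 and 11, and the call of Cox7a2l was then lost. The 5 untested genes were Ndufb4, Cox7b2, Cox8b, Cox8c and Ndufa4l2. Leaving aside Cox4i2 and Cox7a1, the 25 other genes called higher had log2 fold changes between 0.23 and 0.87, and their median was 0.35.

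**Figure D1:**
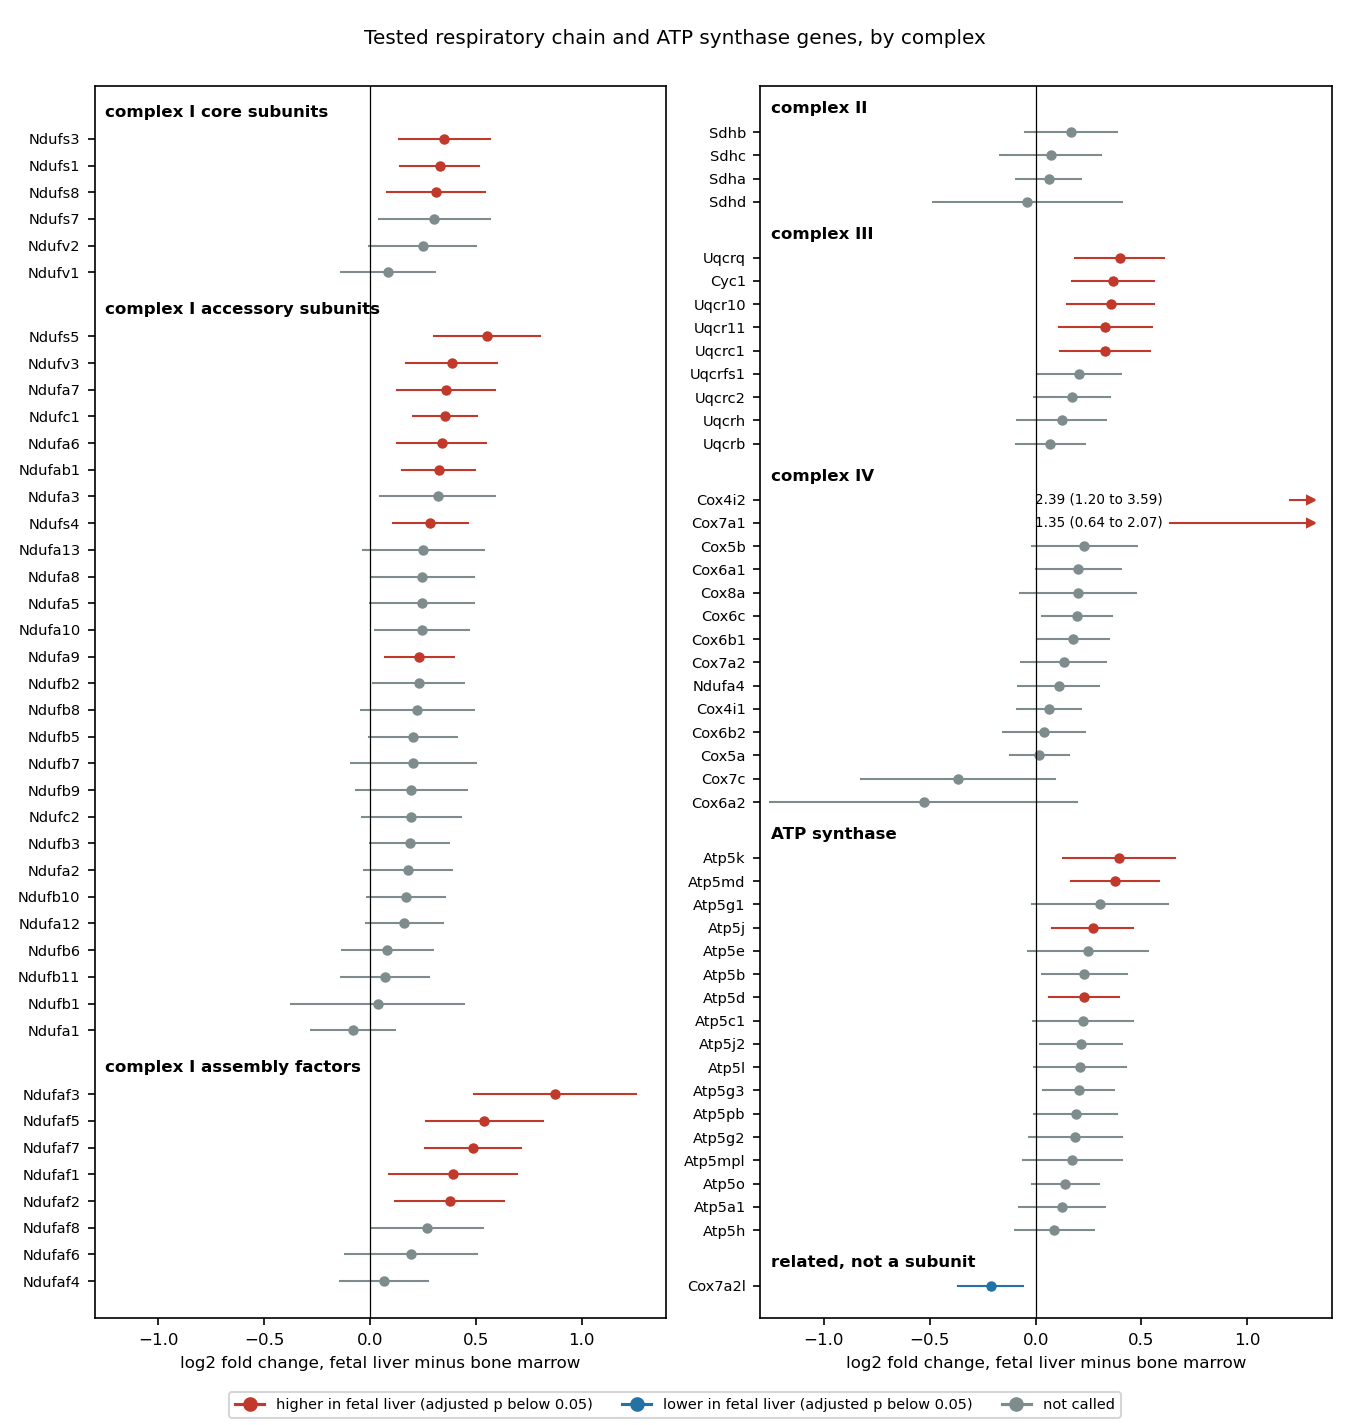
Log2 fold change (fetal liver against bone marrow) of the 86 tested genes by complex; points are the limma estimates, lines their 95% confidence intervals, and colours the call at an adjusted p below 0.05. Arrows mark Cox4i2 and Cox7a1, which are not drawn to scale and have their values printed. Most points lie between 0 and 0.5, and Cox7a2l is the 1 gene called lower.

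Part of this difference is shared by other bright genes and depends on how the arrays are scaled. The probe sets were bright, with a median at the 94.8th percentile of signal, and 1648 other genes with signals in the middle range of the set (2593 to 5665) had a median log2 fold change of 0.10. Among those, 359 (21.8%) were called higher and 121 (7.34%) lower. Centring each array on the median of all its probe sets moved the median of all genes from 0.04 to 0.38 and that of the set to 0.55, with 80 called higher and 0 lower. The median of the set stood 0.17 above that of all genes. Median centring shifts every log2 fold change by the same amount and so cannot change this distance. The distance was 0.05 after quantile normalization and 0.07 without fetal liver replicate 2. Log2 fold changes near these sizes therefore have no settled level, and the values below are those of the deposited scale.

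**Figure D2:**
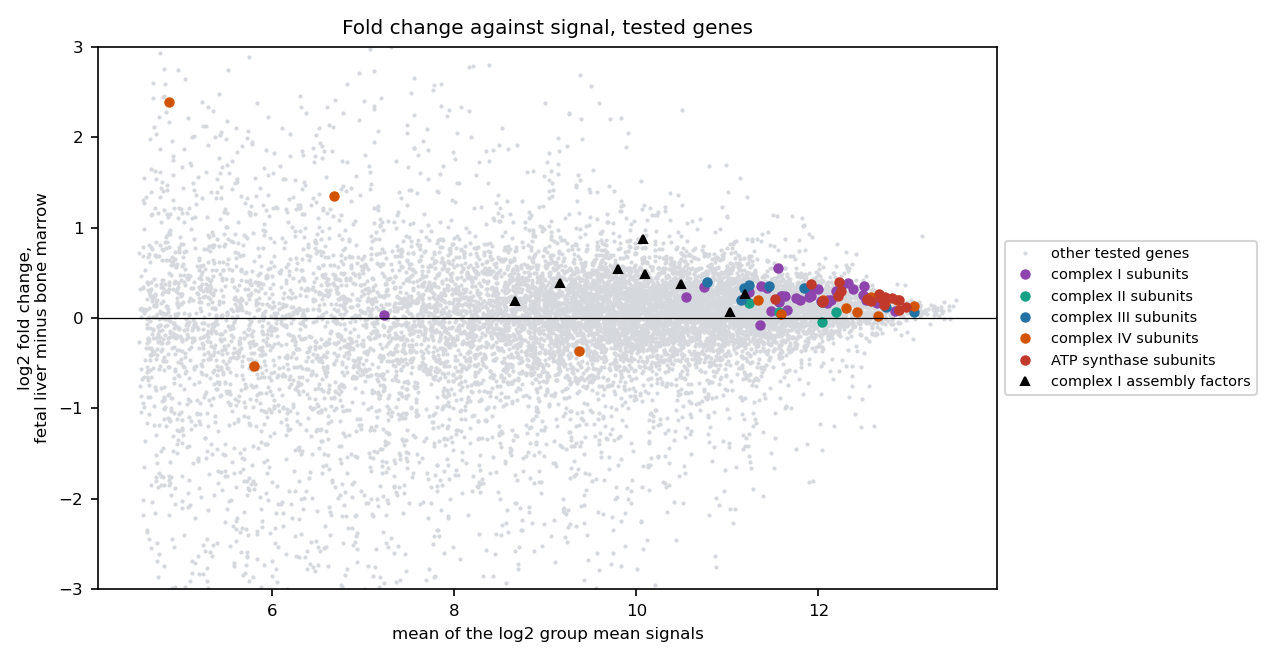
Log2 fold change against the mean of the log2 group mean signals for the tested genes; each point is 1 gene, grey points are other genes, coloured points subunits and black triangles complex I assembly factors. The axis ends at 3 in both directions and leaves out 431 other genes, and most subunits sit at the bright end just above 0 while the assembly factors are dimmer and mostly higher.

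The 3 bone marrow arrays read below the 3 fetal liver arrays for the set as a whole, and fetal liver replicate 2 stood apart from its group. Relative to the mean of the 6 arrays, the median log2 signal over the set was -0.12, -0.05 and -0.14 in bone marrow and 0.03, 0.24 and 0.06 in fetal liver. Fetal liver replicate 2 was the highest of the 6 arrays for 69 of the 86 tested genes. The 12 hybridisation control probe sets, which report RNA added in equal amount to each array, also read highest there, at 0.16 against -0.09 to 0.02 on the other 5 arrays. Without that array, 22 genes were called higher and 1 lower, all 22 of them among the 27, and the median over the set was 0.13. Centring on those controls gave 17 called higher, 16 of them among the 27, and a median of 0.16 (an alternative chosen after the data were seen). The part of this array in the result was not tested further.

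**Figure D3:**
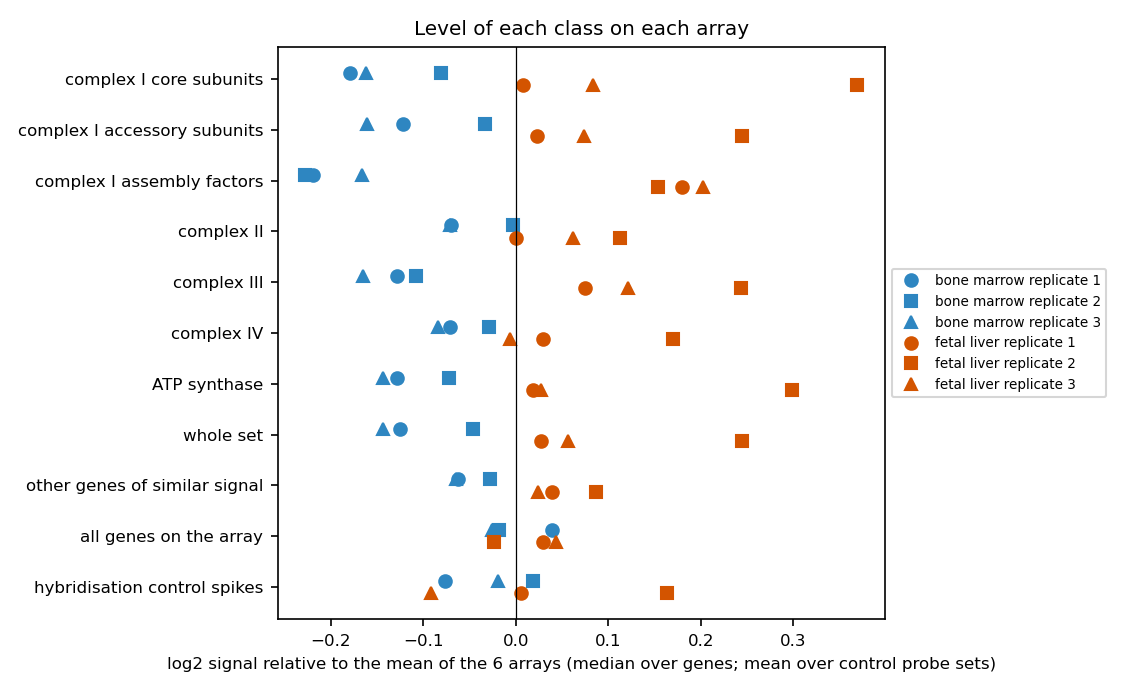
Level of each group of genes on each array, as the median log2 signal relative to the mean of the 6 arrays (for the hybridisation controls, the mean over 12 probe sets); blue symbols are bone marrow arrays and orange symbols fetal liver arrays. In each complex the bone marrow arrays lie to the left of the fetal liver arrays, and fetal liver replicate 2 is the rightmost array for every subunit group but not for the complex I assembly factors.

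Complex I, which oxidises NADH and passes the electrons to ubiquinone, had 11 of its 33 tested subunits (33.3%) called higher and 0 lower. At an unadjusted p below 0.05, 0 were lower as well. The shares were 17.8% higher and 18.3% lower over all genes tested, and 21.8% and 7.34% over genes of similar signal to the set. Among the core subunits, which carry the redox centres, 3 of 6 were called and the median log2 fold change was 0.31, or 0.19 without fetal liver replicate 2. Ndufs1, the large iron-sulfur subunit of the NADH-oxidising arm, read 2341, 2550 and 2547 in bone marrow and 3029, 3023 and 3290 in fetal liver, so the arrays did not overlap (log2 fold change 0.33 ± 0.08 SE, adjusted p = 0.0130). Ndufs3 read 4272, 4468 and 4167 against 5096, 6340 and 5113 (0.35 ± 0.10, adjusted p = 0.0191). Ndufs8, an iron-sulfur protein of the arm that reaches ubiquinone, read 3615, 3292 and 3363 against 3831, 4931 and 4068 (0.31 ± 0.10, adjusted p = 0.0398). For both Ndufs3 and Ndufs8 the tissues did not overlap and fetal liver replicate 2 was the highest array. Ndufs7 (0.30, adjusted p = 0.0673), Ndufv2 (0.25, adjusted p = 0.112) and the NADH-binding subunit Ndufv1 (0.08, adjusted p = 0.541) had overlapping arrays and were not called. Ndufs7 depended on the probe set: its other one read 1805, 2017 and 1742 against 2129, 2756 and 2381, without overlap (0.38). With second probe sets, 4 of the 6 core subunits were called higher.

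The 28 accessory subunits of complex I, which surround the core without taking part in electron transfer, had a median log2 fold change of 0.23 (0.13 without fetal liver replicate 2). Of the 27 tested, 8 (29.6%) were called higher, against 17.8% of all genes tested. Ndufs5 had the largest change of them, reading 2523, 2507 and 2393 in bone marrow and 3192, 4286 and 3478 in fetal liver (0.55 ± 0.11 SE, adjusted p = 0.0046). Ndufc1 read 5215, 5182 and 5033 against 6593, 6876 and 6273 (0.35 ± 0.07, adjusted p = 0.0032). The groups did not overlap for either gene. Ndufab1, the mitochondrial acyl carrier protein that also serves fatty acid and lipoic acid synthesis, read 3593, 3685 and 3635 against 4296, 4903 and 4483 (0.32 ± 0.08, adjusted p = 0.0100). The other 5 called were Ndufv3 (0.39), Ndufa7 (0.36), Ndufa6 (0.34), Ndufs4 (0.28) and Ndufa9 (0.23), again without overlap between the tissues. The Ndufs4 value belongs to its brightest probe set alone: the mean over its probe sets was -0.13 (adjusted p = 0.498). Of the 19 tested genes that were not called, 18 had positive values, from 0.04 for Ndufb1 to 0.32 for Ndufa3, and Ndufa1 had a negative one (-0.08). Ndufb4 was too dim to be tested, with signals of 16.1, 16.4 and 22.4 in bone marrow and 6.92, 5.15 and 13.7 in fetal liver.

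The complex I assembly factors, which build the complex and are not part of it, had a median log2 fold change of 0.38. Of these, 5 of 8 (62.5%) were called higher, against 17.8% of all genes tested. Ndufaf3, which helps assemble the ubiquinone-facing part of the matrix arm, read 737, 802 and 825 in bone marrow and 1085, 1750 and 1578 in fetal liver, a 1.83-fold difference (0.87 ± 0.17 SE, adjusted p = 0.0038). Ndufaf5, which hydroxylates a residue of Ndufs7, read 791, 689 and 737 against 986, 1223 and 1024 (0.54 ± 0.12, adjusted p = 0.0084). Ndufaf7, an arginine methyltransferase, read 872, 911 and 990 against 1285, 1337 and 1256 (0.48 ± 0.10, adjusted p = 0.0054). In each of these the lowest fetal liver array lay above the highest bone marrow array. Ndufaf1 (0.39, adjusted p = 0.0470) and Ndufaf2 (0.38, adjusted p = 0.0311) were also called, while Ndufaf8 (0.27), Ndufaf6 (0.19) and Ndufaf4 (0.06) were not. The assembly factors read alike on the 3 fetal liver arrays (0.18, 0.15 and 0.20 relative to the mean of all arrays). A difference between them and the subunits was not tested.

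Complex II, succinate dehydrogenase, feeds electrons from the tricarboxylic acid cycle into ubiquinone. By limma 0 of its 4 genes were called, against 17.8% of all genes tested called higher and 18.3% lower. A count of 0 among 4 genes does not set the complex apart from these shares. The median log2 fold change was 0.07. The flavoprotein gene Sdha read 4451, 4806 and 4539 in bone marrow and 4754, 4867 and 4772 in fetal liver, overlapping ranges with a difference of 0.06 (95% confidence interval -0.09 to 0.22, adjusted p = 0.515). The iron-sulfur subunit Sdhb had non-overlapping arrays (0.17, adjusted p = 0.210), and the membrane anchor Sdhc had overlapping ones (0.07, adjusted p = 0.632). The other anchor gene, Sdhd, depended on the probe set: its brightest read 4007, 4019 and 4560 against 5336, 2816 and 4496 (-0.04 ± 0.20, adjusted p = 0.891). Its other probe set read 2856, 2577 and 2705 against 3292, 3943 and 3559, without overlap (0.40, adjusted p = 0.0080 when that probe set was used instead). At an unadjusted p below 0.05, 0 of the 4 genes passed with the brightest probe sets, and ordinary t statistics also called 0.

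Complex III, the ubiquinol-cytochrome c reductase, had 5 of 9 genes (55.6%) called higher, against 17.8% of all genes tested. Its median log2 fold change was 0.33. Cyc1, the cytochrome c1 haem protein that hands electrons to cytochrome c, read 2012, 2244 and 2119 in bone marrow and 2779, 2854 and 2584 in fetal liver (0.37 ± 0.09 SE, adjusted p = 0.0098). Uqcrq, a small subunit near cytochrome b, read 1588, 1596 and 1407 against 2112, 1969 and 1956 (0.40 ± 0.09, adjusted p = 0.0101). Neither gene had overlapping arrays, and Uqcrq read highest on fetal liver replicate 1. The Uqcrq call was lost with its second probe set, of mean signal 88.9 (0.08, adjusted p = 0.829 when that probe set was used instead). Uqcr10 (0.35, adjusted p = 0.0155), Uqcr11 (0.33, adjusted p = 0.0277) and the core protein gene Uqcrc1 (0.33, adjusted p = 0.0234) were called as well. The other Uqcr10 probe sets, with mean signals of 477 and 306, had larger values of 1.44 and 0.93. The Rieske iron-sulfur protein Uqcrfs1 (0.21, adjusted p = 0.0993), Uqcrc2 (0.17), Uqcrh (0.12) and Uqcrb (0.07) were not.

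Complex IV, cytochrome c oxidase, had a median log2 fold change of 0.13 over its 17 genes, and of 0.05 without fetal liver replicate 2 and 0.04 after quantile normalization, where the median of all genes was 0.08. Of 14 tested genes 2 (14.3%) were called higher, against 17.8% of all genes tested and 21.8% of genes of similar signal to the set. Both, Cox4i2 and Cox7a1, are isoforms of low signal, and without Cox4i2 the count was 1 of 13. Cox4i2, the paralogue of subunit 4 known from lung and from responses to low oxygen, read 5.88, 18.2 and 14.8 in bone marrow and 36.4, 82.3 and 76.8 in fetal liver (log2 fold change 2.39 ± 0.53 SE), without overlap. All 3 bone marrow signals lay under the filter of 22.9, so it was among the tested genes only because fetal liver was high, and its call under the filter carries no weight. With no filter at all its adjusted p was 0.0120. A single bone marrow array lay below the level of the unspiked bacterial controls (10.6), so the size of the fold is uncertain, and with that signal raised to the level the value was 2.11. Cox7a1, the form of subunit 7a known from heart and skeletal muscle, read 86.5, 41.2 and 66.1 against 127, 206 and 150 (1.35 ± 0.32, adjusted p = 0.0098), again without overlap. Both calls were lost with ordinary t statistics (adjusted p = 0.0649 and 0.0728), and Cox4i2 fell under the signal filter without fetal liver replicate 2 or 3. The more widely expressed forms were not called: Cox4i1 read 5440, 5342 and 5409 against 5861, 5711 and 5361 (0.06, 95% confidence interval -0.09 to 0.21), and Cox7a2 had a value of 0.13 (-0.07 to 0.33).

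The remaining complex IV genes were not called or not tested. Cox5a, which with Cox5b caps the enzyme on the matrix side, had the narrowest interval around 0 of the set (0.02, 95% confidence interval -0.12 to 0.16), and Cox5b was at 0.23 (adjusted p = 0.135) with non-overlapping arrays. Cox6a1 (0.20), Cox6b1 (0.18) and Cox6c (0.19), also with non-overlapping arrays, and Cox8a (0.20), with overlapping ones, were positive and not called. The muscle form Cox6a2 read 59.3, 66.7 and 70.6 in bone marrow and 64.6, 45.4 and 31.7 in fetal liver (-0.53, adjusted p = 0.231), and Cox7c was at -0.37 (adjusted p = 0.190). Both overlapped between tissues. Cox6b2, known from testis, was at 0.04, and Ndufa4, a complex IV subunit despite its name, at 0.11. Cox7b2, Cox8b and Cox8c were not tested: Cox7b2 lay below the control level on all 6 arrays and Cox8b on 3 of 3 fetal liver arrays.

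**Figure D4:**
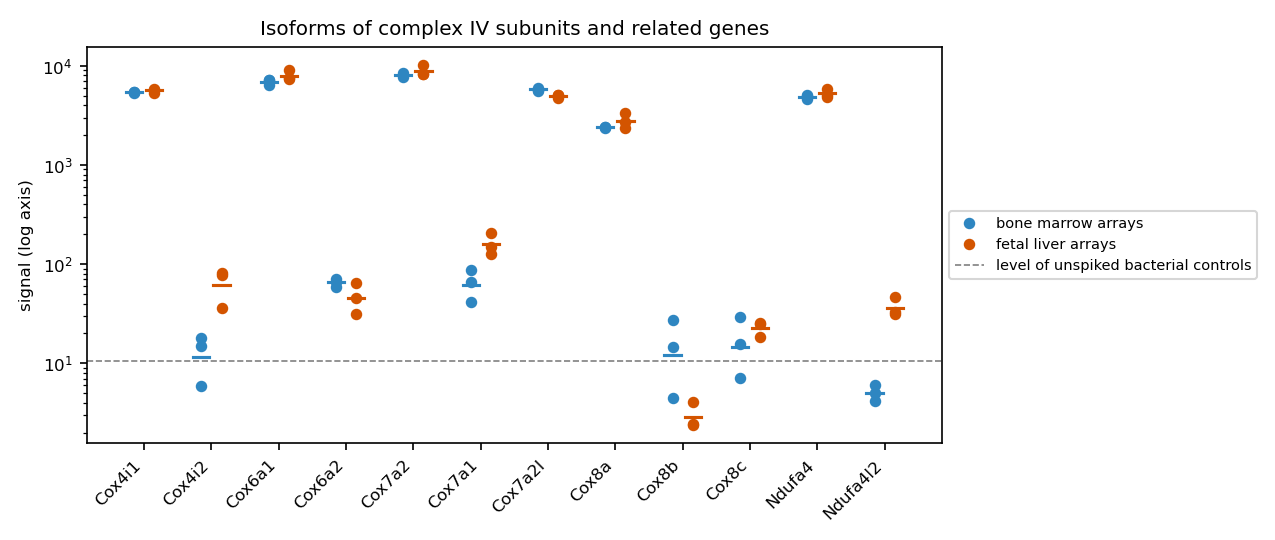
Signal on each array, on a log axis, for paralogous complex IV genes and related genes; each point is 1 array, short bars are geometric means, and the dashed line is the level of unspiked bacterial controls (10.6). Levels of different genes come from different probes and cannot be set against each other. Within a gene, Cox4i2, Cox6a1, Cox7a1 and Ndufa4l2 have all fetal liver arrays above all bone marrow arrays. Cox7a2l and Cox8b have them below, and the fetal liver signals of Cox8b lie under the dashed line.

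Of the proteins related to complex IV, only Cox7a2l could be tested. Cox7a2l, a relative of subunit 7a that joins complexes III and IV into supercomplexes and that in C57BL/6 mice is made in a shortened form, was the 1 gene of the set called lower. It read 5580, 5985 and 5720 in bone marrow and 5081, 4779 and 5064 in fetal liver, without overlap (-0.21 ± 0.07 SE, adjusted p = 0.0366). Its other probe sets also had negative values, of -0.23 and -0.31. The direction was not kept under median centring (0.13, adjusted p = 0.370), and the call was also lost without any 1 of the bone marrow arrays (adjusted p up to 0.133) or without fetal liver replicate 3 (0.0765). Ndufa4l2, a relative of Ndufa4 induced by low oxygen, was below the control level on all 3 bone marrow arrays, with signals of 5.06, 4.22 and 6.01, and read 31.7, 32.7 and 46.8 in fetal liver. That is at least 3.43-fold higher in fetal liver, as the ratio of the fetal liver geometric mean to the control level, and it was not tested because its mean signal was under the filter.

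ATP synthase had positive values for all 17 of its genes (16 after quantile normalization). Of these, 4 (23.5%) were called higher, against 17.8% of all genes tested and 21.8% of genes of similar signal to the set. The latter are not matched to this complex, whose median signal percentile was 98.8 against 93.7 for them. The median log2 fold change of ATP synthase was 0.21, and it was 0.12 both without fetal liver replicate 2 and after quantile normalization. Atp5k, subunit e of the membrane part, read 4346, 4325 and 3863 in bone marrow and 4833, 6631 and 5153 in fetal liver (0.40 ± 0.12 SE, adjusted p = 0.0278). Atp5md, another small membrane subunit linked to the dimer form, read 3416, 3366 and 3407 against 4067, 5016 and 4169 (0.37 ± 0.09, adjusted p = 0.0125). Neither overlapped between tissues, and in both fetal liver replicate 2 lay well above the other fetal liver arrays. Atp5j, coupling factor 6 of the stalk (0.27, adjusted p = 0.0340), and Atp5d, the delta subunit of the rotor (0.23, adjusted p = 0.0370), completed the calls. The catalytic beta subunit Atp5b (0.23, adjusted p = 0.0710) and the alpha subunit Atp5a1 (0.12, adjusted p = 0.307) were not called. The 3 genes for the same ring-forming subunit c, Atp5g1 (0.30), Atp5g2 (0.19) and Atp5g3 (0.20), were not called either, and their 95% confidence intervals overlapped. The values of the remaining 8 genes ran from 0.09 for Atp5h to 0.25 for Atp5e. Atp5c1 depended on the probe set, with 0.22 for the brightest and -0.42 (adjusted p = 0.0339) for the next brightest.

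Probe sets mostly gave the same direction. Of the 91 genes, 49 had several tested probe sets: in 35 all had the same sign, in 14 the signs were mixed, and in 0 were probe sets called in both directions. Leaving out 1 array ended the call of 17 of the 27 genes called higher, most often a bone marrow array. The 9 that kept it without each array were Ndufab1, Ndufc1, Ndufs5, Ndufaf3, Ndufaf5, Ndufaf7, Cyc1, Cox7a1 and Atp5md, and Cox4i2 is left out of this count because its fetal liver arrays decide whether it is tested. Among the others, the adjusted p without the least favourable array reached 0.0583 for Ndufs1, 0.0754 for Ndufs3, 0.119 for Ndufs8, 0.0579 for Uqcrq, 0.110 for Atp5k and 0.159 for Ndufaf1, whose call was lost without any 1 of the 6. The calls of Cyc1, Ndufaf5, Ndufaf7 and Ndufc1 were kept under all 21 alternative settings. Of the other genes called higher, the call was lost most often for Ndufs8 and Ndufaf1 (12 of 21 each) and Atp5d (11 of 21).

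**Figure D5:**
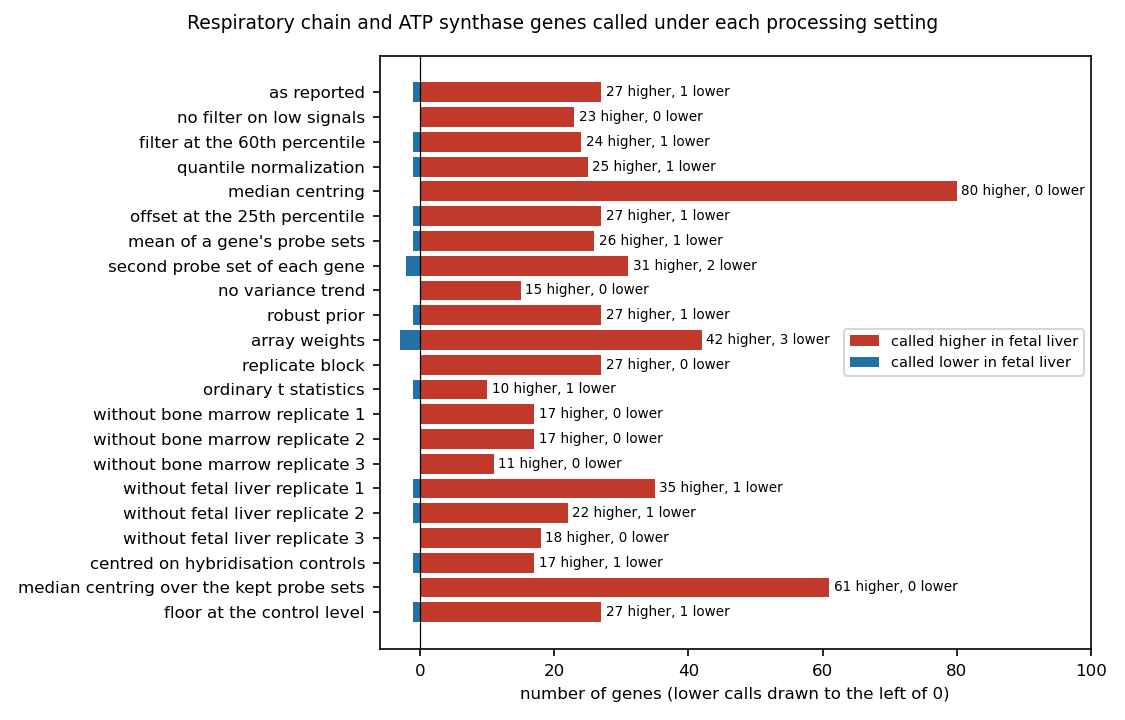
Number of the set's genes called higher (red, right of 0) or lower (blue, left of 0) in fetal liver under each processing setting, at an adjusted p below 0.05. The count called higher runs from 10 with ordinary t statistics to 80 with median centring, against 27 as reported, and the count called lower from 0 to 3.

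Upstream sequence is shown for 4 of these genes because regulators of respiratory chain genes are known to act through short motifs close to the start. In each group with calls, the called gene with the largest change and a RefSeq sequence was picked, and some of those are printed. The motifs searched on both strands were CATGCGC (core of the NRF1 site), CCGGAAG (ETS factors, which include GABP), AAGGTCA (bound by estrogen-related receptors) and ATGGCGG (YY1). The sequences are the 120 bases before the RefSeq transcript start in GRCm38.p6, written 5′ to 3′ on the gene's strand, and capitals mark a match to any of the motifs. Ndufs3 and Atp5k, both called higher, hold an ETS match and, on both strands, an NRF1 core match, respectively. Cox7a1, also called higher, and Cox7a2l, the gene called lower, hold none of these letters in the stretch shown. Ndufs5, Ndufaf3 and Uqcr10, picked by the same rule and called higher, also hold none in their 120 bases, which are not printed.
Ndufs3, chr2:90904722-90904841, minus strand: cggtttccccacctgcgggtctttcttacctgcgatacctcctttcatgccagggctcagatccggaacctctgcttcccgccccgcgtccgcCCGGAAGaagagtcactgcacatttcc
Atp5k, chr5:108434400-108434519, minus strand: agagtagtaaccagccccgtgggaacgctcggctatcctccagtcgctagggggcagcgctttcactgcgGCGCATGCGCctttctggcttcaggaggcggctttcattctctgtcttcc
Cox7a1, chr7:30184051-30184170, plus strand: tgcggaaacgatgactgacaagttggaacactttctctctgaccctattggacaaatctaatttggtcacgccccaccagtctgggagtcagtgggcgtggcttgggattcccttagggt
Cox7a2l, chr17:83514334-83514453, minus strand: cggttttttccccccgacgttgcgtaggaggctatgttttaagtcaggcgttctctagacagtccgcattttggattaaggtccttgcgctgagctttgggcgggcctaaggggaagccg

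RefSeq windows of 300 bases, 250 before to 50 after the start, were matched by Entrez identifier for 74 of the 91 genes. The tested genes they are set beside were matched by symbol. At least 1 of the 4 motifs was present in 39 of the 74 (52.7%), in 33.1% of 9502 tested genes with a window and in 19.7% of 27025 genes with a window. The NRF1 core was present in 14 (18.9%) against 7.37% of tested genes, the receptor motif in 8 (10.8%) against 3.13%, the YY1 motif in 10 of the 74 against 8.69%, and the ETS motif in 18 (24.3%) against 18.9%. Within the set, 14 of 23 genes called higher (60.9%) and 24 of 47 genes not called (51.1%) held at least 1. The NRF1 core was found in 5 of the 23 (21.7%) and 9 of the 47 (19.1%). A match describes letters in this window and does not show binding.

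Genes that work around the respiratory chain were described from lists of known members, and their counts stand beside 17.8% of all tested genes called higher and 21.8% of genes of similar signal to the set. Of 40 tested assembly factors for the complexes outside the naming rule, 16 were called higher and 0 lower (0 lower also at an unadjusted p below 0.05). They included Cox17, a copper chaperone for complex IV, at 3785, 4455 and 4175 in bone marrow and 5662, 6710 and 6279 in fetal liver (0.59 ± 0.09 SE, adjusted p = 0.0011), and Cox19, a protein of the same pathway (0.73, adjusted p = 0.0012). Neither overlapped between tissues. Of the complex II factors 3 of 4 were called, with Sdhaf4 at 0.45 and Sdhaf2, which inserts the flavin of Sdha, at 0.57. Of the 4 subunits, 0 were called with the brightest probe sets and 1 with second probe sets. A difference between the complex II factors and subunits was not tested. The complex I factors outside the Ndufaf names had 3 of 7 called (Nubpl 0.50, Tmem186 0.36), the complex IV factors 7 of 20, the ATP synthase factors 2 of 3 (Atpaf1 0.46, Atpaf2 0.44) and the complex III factors 1 of 6 (Bcs1l 0.31). Their medians were 0.36, 0.26, 0.44 and 0.13, and that of the complex II factors was 0.48.

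Among electron carriers, ubiquinone synthesis and side entries to the chain, 7 of 14 were called higher, with a median log2 fold change of 0.33. Coq3, a methyltransferase of ubiquinone synthesis, read 398, 443 and 421 in bone marrow and 723, 810 and 810 in fetal liver, without overlap (0.89 ± 0.12 SE, adjusted p = 5.0e-04), and Pdss2, which makes the side chain, was at 0.43 (adjusted p = 0.0064). Cytochrome c itself, Cycs, was at 0.22 and not called (adjusted p = 0.101). The tricarboxylic acid cycle had 4 of 12 called (median 0.19), including Suclg1 (0.40) and Idh3b (0.33), and the ADP, phosphate and proton carriers 1 of 6 (median 0.19), the ADP/ATP carrier Slc25a4 (0.39, adjusted p = 0.0047). Genes for mitochondrial DNA maintenance and transcription had 3 of 13 called (23.1%, near the share of all genes; median 0.13), including Tefm (0.49) and Mterf4 (0.44), while Tfam, which packages the DNA, was at -0.01 (adjusted p = 0.947). The 1 mitochondrially encoded subunit on the array, ND5, was at 0.18 (adjusted p = 0.160).

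Regulators of mitochondrial gene expression had no call in the direction of the set. Of 9 tested, 0 were called higher, also at an unadjusted p below 0.05, and 1 was called lower (11.1%). The shares over all genes tested were 17.8% higher and 18.3% lower, and 9 genes are too few to tell the list from these. Nrf1 was at 0.04 (adjusted p = 0.857), the receptor gene Esrra at 0.20 (adjusted p = 0.554), and Gabpa read 1948, 1976 and 1710 in bone marrow and 2116, 1473 and 2090 in fetal liver (adjusted p = 0.983). Pprc1 overlapped between tissues as well (adjusted p = 0.990). The coactivator gene Ppargc1b was the 1 called lower, at 241, 285 and 255 against 198, 171 and 147, without overlap (-0.60 ± 0.18 SE, adjusted p = 0.0275). Its relative Ppargc1a was below the control level on all 6 arrays and was not tested.

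Markers of other cells moved with the comparison, and their part in the values above was not tested. In bulk samples such as these, fewer cells of a type and less RNA per cell cannot be told apart. The summed signal of 15 granulocyte and monocyte markers was 60840 to 76075 in bone marrow and 7926 to 9925 in fetal liver, and all 14 tested were lower in fetal liver. Macrophage markers (10 genes) summed to 1830 to 2206 against 290 to 318, with 5 of 5 tested lower, mast cell and basophil markers (8 genes) to 4026 to 5224 against 256 to 354, with 5 of 5 lower, and lymphoid markers (12 genes) to 3402 to 5122 against 1467 to 1611, with 6 of 8 lower. Over all genes tested, 18.3% were called lower and 17.8% higher. The filter used the mean of all 6 arrays, so a marker dim in fetal liver was tested only if bone marrow was high. Median fetal liver signals were 9.16 for macrophage, 9.66 for mast cell and basophil and 12.9 for lymphoid markers, under the filter of 22.9. The filter thus helped fix the counts called lower in these lists, which carry no weight. Among the markers below the control level on all fetal liver arrays were Cd163, Fcer1a and Cd79a. Megakaryocyte and platelet markers (14 genes) summed to 32820 to 37986 against 30049 to 50056, with 4 higher and 1 lower. Erythroid markers (9 genes) summed to 8927 to 17361 against 7693 to 9065, with 2 higher and 3 lower of 8 tested.

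Endothelial markers (8 genes) summed to 3905 to 4598 in bone marrow and 5012 to 6907 in fetal liver, with 3 of 6 tested higher, and hepatoblast markers (9 genes) to 1856 to 2107 against 1525 to 2294, with 2 higher and 2 lower of 5 tested. Of the hepatoblast markers, Dlk1 averaged 13.8 in bone marrow and 1097 in fetal liver and Apoa2 15.2 and 45.4, both called higher, with all bone marrow signals under the filter. Afp (221 against 62.6) and Krt18 (1647 against 605) were called lower, and Alb, with means of 7.74 and 28.3, was not tested. Of the proliferation markers, 11 of 19 (57.9%) were called higher in fetal liver and 0 lower. They had a median log2 fold change of 0.25 and summed signals of 61689 to 69472 against 76949 to 80656. The shares over all genes tested were 17.8% higher and 18.3% lower, and 6 endothelial or 5 hepatoblast genes are too few to tell from these. The 3'/5' signal ratios of the control transcripts, a measure of RNA quality, ran from 1.39 to 1.58 (Gapdh) in bone marrow and from 1.32 to 1.38 in fetal liver. Median signals were 65.9 to 74.6 for bone marrow and 52.0 to 59.1 for fetal liver, while the trimmed mean was 500 on each array.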

How the data were processed

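RNA of sorted progenitors was hybridised to Affymetrix mouse arrays, 3 per tissue. The authors deposited MAS5 intensity values on a linear scale, as the submitters' processing notes name the tool (version not given in the sources used here). Each array had a trimmed mean (2% off either end) of 500. MAS5 signals scatter widely when dim, and the number of arrays limits the precision.

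Intensities were taken to log2 without adding an offset. Probe sets whose mean log2 signal exceeded the 40th percentile (a signal of 22.9) were kept, and for each of 11645 genes the brightest probe set with 1 gene symbol was used. The fit was made in limma 3.58.1 under R 4.3.3, with a tissue term alone, which leaves 4 residual degrees of freedom, and a variance prior that follows intensity. P-values were adjusted over all genes by Benjamini-Hochberg, with a threshold of 0.05. The script was tested on simulated data. The control level (10.6) is the 95th percentile over 27 probe sets for bacterial transcripts that had not been spiked in. For a tissue whose geometric mean lay below it, only a lower bound of the fold is given, against that level.

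All 91 genes matched the RefSeq table (GRCm38.p6) by Entrez identifier, and promoter windows came from RefSeq, the first window of a gene. Genes in groups of at most 6 were all named, otherwise the 2 brightest and up to 4 called per direction with the largest change and separated arrays, plus paralogous isoforms. From related lists up to 2 called genes per direction and, whatever their values, 8 regulators and carriers were named. The set, the lists and the tests were chosen with earlier results of these data known.

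Replicate numbers did not pair the samples. Alternatives were filters, normalizations, probe set choices, variance models, array weights, a replicate block and leaving out each array. Summaries and plots used matplotlib 3.10.9, numpy 2.4.6, pandas 2.3.3 and Python 3.11.15.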

Additional observations from a re-analysis of the deposited data

How the results depend on the processing

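The direction of the set's median held under each alternative that could change it, from 0.13 to 0.55, while the counts of calls moved. The filters, variance models, ordinary t statistics and replicate block cannot change that median. As reported 27 of its genes were higher and 1 lower. Fewer were higher with no variance trend (15, and 0 lower), ordinary t statistics (10) or centring on hybridisation controls (17), and more with array weights (42, and 3 lower). Without each array in turn 11 to 35 were higher and 0 to 1 lower, lowest without bone marrow replicate 3. With the replicate block 27 were higher, 25 of them the same genes, and 0 lower. The numbers did not pair the samples: the deviations of same-numbered arrays correlated at -0.08, 0.07 and -0.11. Without the filter 0 were lower, and with each gene's second probe set 2 were.

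Median centring gave 80 higher and 0 lower and a median of 0.55. The medians were then 0.65, 0.56 and 0.72 for complex I core subunits, accessory subunits and assembly factors, 0.40, 0.67 and 0.47 for complexes II, III and IV, and 0.55 for ATP synthase. Centring on the kept probe sets, added after the data were seen, gave 61 higher, 0 lower and a median of 0.37, with 0.39 for accessory subunits, 0.54 for assembly factors, 0.23, 0.49 and 0.29 for complexes II, III and IV, and 0.37 for ATP synthase. Quantile normalization gave -0.0111 for complex II, a reversed sign, 0.24 for complex III and 0.44 for assembly factors. The assembly factor median was 0.33 with hybridisation control centring and 0.33 to 0.45 without each array. Complex II was at 0.13 with the mean of probe sets and 0.18 with the second. Sdhd changed sign with its second probe set (0.40) and Cox7a2l with median centring (0.13).

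Over all genes, 2074 were higher and 2134 lower. The count higher was 5377 with median centring, 3649 on the kept probe sets, 3169 with array weights, 1316 with ordinary t statistics, 1352 with hybridisation control centring and 1282 to 2177 without each array. The count lower was 1402 with the filter at the 60th percentile and 1348 with median centring. The causes were not tested. Dim signals limit Cox4i2, Cox7a1 and the 5 untested genes.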
